A study of Mus musculus with 6 samples.

Results

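The CD40 receptor, its TRAF adaptors and the NF-kB subunits were followed as 10 transcripts in germinal centre B cells of mouse spleen, the antigen-activated B cells that are selected by T cell help. They were taken by symbol (Cd40, Traf1, Traf2, Traf3, Traf3ip3, Nfkb1, Nfkb2, Rel, Rela and Relb), and all 10 were found among the 23420 genes listed per library. All 10 also passed the limit of a mean of 1 CPM (read counts scaled to a common library total) that left 10133 genes for the test. The WT group had the genotype BASP1 +/+ hCD20TamCre+/- and the KO group BASP1 fl/fl hCD20TamCre+/-, with 3 libraries each, numbered 1 to 3. Both groups thus carried the same tamoxifen-activated Cre, which by its name is driven by human CD20, a B cell gene. All mice were immunized with NP-KLH, a hapten on a carrier protein, and received 1 mg tamoxifen on each of days 5, 7 and 9. Cells were sorted on day 10. No source used here gives the age of the mice or the number of mice per library. The p-values thus measure a spread between these libraries, which may be technical. For each of the 10 transcripts that spread is mostly borrowed from other genes.

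CD40 is a receptor of the tumour necrosis factor family through which T cells help B cells. In the canonical pathway, receptor signals activate the IKK complex, IkB inhibitors are degraded, and dimers of RelA or c-Rel (genes Rela and Rel) with p50 (from Nfkb1) enter the nucleus. In the alternative pathway, TRAF2 and TRAF3 hold the kinase NIK (gene Map3k14) low in resting cells; once CD40 recruits them, NIK accumulates, p100 (from Nfkb2) is processed to p52, and p52 pairs with RelB. Several genes of the pathway, among them Nfkb2, Relb, Traf1 and Nfkbia, are themselves known targets of NF-kB.

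Markers of germinal centre B cells were high in all libraries, and transcripts of naive and follicular B cells were present too. The summed level of 8 germinal centre markers, with Bcl6 and S1pr2 among them, was 4095 to 4234 CPM in WT and 3995 to 4135 CPM in KO. None of the 8 passed the test, and 6 of them had a negative difference, with pair medians of -0.086, -0.13 and -0.014. The 5 general B cell markers, such as Ms4a1 and Cd79a, summed to 7878 to 8170 CPM in WT and 7371 to 7645 CPM in KO, so the sum was lower in every KO library. All 5 had a negative difference (pair medians -0.18, -0.076 and -0.061) and none passed the test. The 5 naive and follicular B cell markers found, of 6 listed, summed to 297 to 376 CPM in WT and 315 to 400 CPM in KO. Among them, Fcer2a was at 8.14 to 8.55 log2 CPM over the libraries, above Bcl6 at 7.64 to 7.84. The 6 plasma cell markers summed to 2104 to 2315 CPM in WT and 1973 to 2159 CPM in KO, a sum made up mostly of the immunoglobulin J chain transcript (listed as Igj), which differed by -0.16 ± 0.20 (SD, n = 3 pairs). The other 5 had a positive difference, and the pair medians of the list were 0.61, 0.28 and 0.13. Of these 5, Tnfrsf17 was very low, at -4.92 to -4.28 log2 CPM in WT and -4.28 to -3.64 in KO. It differed in pair 1 alone. Xbp1 differed by only 0.05 ± 0.15 (SD, n = 3 pairs), and Sdc1 was below the limit of the test. Irf4, Prdm1 and Sdc1 were higher in every KO library, and none of the 4 plasma cell markers tested passed. Myeloid markers summed to 10.7 to 14.6 CPM in WT and 8.64 to 11.9 CPM in KO. Basp1 itself was at 44.8, 59.5 and 46.0 CPM in WT and at 9.65, 7.27 and 9.39 CPM in KO, and its log2 difference of -2.51 ± 0.45 (SD, n = 3 pairs) passed the test (limma adjusted p = 3.3e-16). The summed level of the 8 T cell markers found was 6.10 to 6.26 CPM in WT and 6.35 to 7.70 CPM in KO. Cd3e was in all 6 libraries at -5.063 log2 CPM, a value that 8492 genes hold in every library. It was the only T cell marker found that did so. Lat, another of them, was at 1.66 to 2.03 log2 CPM in WT and at 1.90 to 2.27 in KO. Cd3d was low, at -3.05 to -0.78 log2 CPM in WT and -4.39 to -2.12 in KO. Cd3g was low too, at -6.05 to -3.98 in WT and -4.77 to -2.69 in KO. Only 2 of the 8 reached the limit of the test. Of the erythroid and platelet markers, 8 found of 9 listed, the sum was 1.90 to 4.45 CPM in WT and 4.80 to 9.93 CPM in KO, with both alpha globin genes at -5.063 log2 CPM throughout. Their part in the results below was not tested.

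Promoter sequences are shown first for Traf3ip3, which was the one that passed the test, and then for Rel, Nfkb2 and Traf3. Rel and Nfkb2 were higher in all 3 KO libraries and Traf3 was not. Rela, also higher in all 3, is not shown. The sequences were taken from RefSeq (GRCm38.p6, 5′ to 3′ on the gene's strand), and capitals mark matches to the 10-base NF-kB consensus (the kappa B site) on either strand. Stretches inside annotated exons were left out, except for 30 bases around a match of Nfkb2. Positions count back from the RefSeq start, with -1 as the base before it. The Traf3ip3 stretch is chr1:193201704-193201796 on the minus strand (-250 to -158), that of Rel chr11:23770971-23771219 on the minus strand (-250 to -2), that of Nfkb2 chr19:46304689-46304718 on the plus strand (-48 to -19) and that of Traf3 chr12:111166120-111166369 on the plus strand (-250 to -1).
Traf3ip3: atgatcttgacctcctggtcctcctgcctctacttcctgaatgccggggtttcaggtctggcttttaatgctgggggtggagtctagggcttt
Rel: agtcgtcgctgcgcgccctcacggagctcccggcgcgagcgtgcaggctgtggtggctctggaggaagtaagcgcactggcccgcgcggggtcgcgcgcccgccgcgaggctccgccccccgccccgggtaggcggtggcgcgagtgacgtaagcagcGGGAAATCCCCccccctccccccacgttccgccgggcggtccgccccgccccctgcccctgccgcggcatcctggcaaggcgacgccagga
Nfkb2: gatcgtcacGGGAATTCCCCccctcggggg
Traf3: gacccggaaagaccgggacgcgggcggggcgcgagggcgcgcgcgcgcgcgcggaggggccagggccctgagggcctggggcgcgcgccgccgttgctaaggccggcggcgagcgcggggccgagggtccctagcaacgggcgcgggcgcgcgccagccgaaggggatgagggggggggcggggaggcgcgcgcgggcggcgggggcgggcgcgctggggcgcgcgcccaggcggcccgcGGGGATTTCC

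Of the 10 transcripts 7 had an entry in the RefSeq promoter table, and Cd40, Nfkb1 and Relb had none. Windows reached from 250 bases before to 50 after a start. A match was found for 3 of the 7, Traf3, Rel and Nfkb2, and in none of the windows of Traf1, Traf2, Traf3ip3 and Rela. Rela was thus higher in every KO library without a match, and Traf3 had a match without being so. A link between matches and differences was not tested. Of all 27025 genes 5.14% had one. Counted by window, 5 of the 9 windows of these transcripts held a match, beside 4.51% of all 32851 windows. The windows of all 3 Nfkb2 starts are among these 5. Those of starts 2 and 3 overlap and share a match, at 11 to 20 after start 2 and -225 to -216 before start 3. The same site is thus counted in both, so the share by window is not a share of separate sites. In Rel, 2 overlapping matches covered -92 to -82. The first of 3 Nfkb2 starts had overlapping matches from -39 to -29 and another from -11 to -2. In Traf3 the match ended on the base before the start. A match describes letters in the window, not binding, and these data hold no measurement of binding.

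At the level of single transcripts, Traf3ip3 fell and the other 9 did not pass the test. KO was compared with WT by limma, with the replicate number as a block and p-values adjusted over all 10133 genes at a 5% false discovery rate. Of the tested genes 0.0987% were called lower and 0.168% higher, so 1 lower and 0 higher among the 10 is to be read against those shares. At an unadjusted p under 0.05 there were 3 of the 10 (Traf3ip3 lower, Nfkb2 and Relb higher), beside 8.82% of all tested genes (4.16% higher and 4.66% lower). The KO libraries lay all above or all below the WT libraries for 6 of the 10, 4 above and 2 below. The same held for 27.7% of all tested genes (15.2% above and 12.5% below). Over the 10 the median log2 difference was 0.042, beside 0.004 over all tested genes. The deposited values of a replicate number have the same WT and KO sum for every gene, so such separation is the same thing as 3 pairs that go one way. For the same reason the SD is equal in WT and KO, and the SD given with each difference is that of the 3 paired differences.

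**Figure D1:**
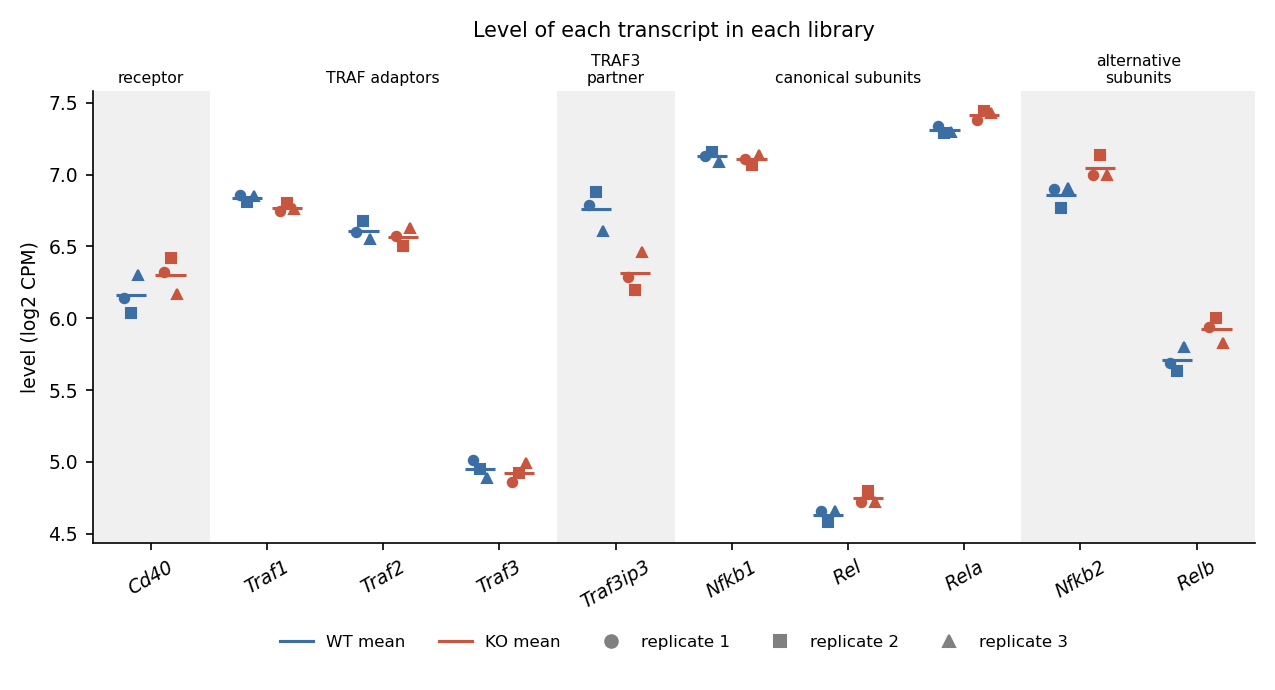
Level of the 10 transcripts (log2 CPM, vertical axis) in each of the 6 libraries, ordered by role along the horizontal axis; points are libraries, their shapes the replicate numbers, and lines the means of 3 libraries. The 3 KO points of Traf3ip3 lie below all 3 WT points (6.20 to 6.46 against 6.61 to 6.88), while those of Rel, Rela, Nfkb2 and Relb lie above theirs by less. The KO points of Traf1 lie just below its WT points (6.75 to 6.80 against 6.81 to 6.86).

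Traf3ip3 encodes a protein that binds TRAF3, also called T3JAM, and is expressed mainly in lymphoid cells. Its level was 111, 118 and 98.0 CPM in WT libraries 1, 2 and 3 and 78.0, 73.4 and 88.1 CPM in the KO libraries. All 3 KO libraries were lower than every WT library, with KO 3 and WT 3 closest to each other. The log2 difference was -0.45 ± 0.27 (SD, n = 3 pairs; limma adjusted p = 0.00366, 95% interval -0.62 to -0.27), which puts KO at 0.734 times WT. The pairs differed by -0.50, -0.68 and -0.15. The p-value and interval, like those below, rest mostly on a spread borrowed from other genes. The SD of Traf3ip3 itself was above the median of 0.112 of genes at 64 CPM or more. Pair 2 carried the call: without it the mean was -0.33 and the adjusted p 0.523. The call was also lost with no variance trend (adjusted p = 0.77) and with no replicate block (adjusted p = 0.0669). Fewer cells that express a transcript and less of it per cell cannot be told apart in these bulk libraries.

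The Traf3ip3 gene (ENSMUSG00000037318.10) spans 193175453 to 193201703 of chromosome 1, minus strand, in GRCm38 (mm10). By its p-value it ranked 10 among all tested genes. Among the 3329 tested genes at 64 CPM or more, 7 had a more negative difference. Its exons share 420 bases with those of A130010J15Rik on the other strand, which had a mean of 3.10 log2 CPM and a log2 difference of 0.22. No source used here states whether counting used strand, so reads from the shared bases cannot be told apart.

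**Figure D2:**
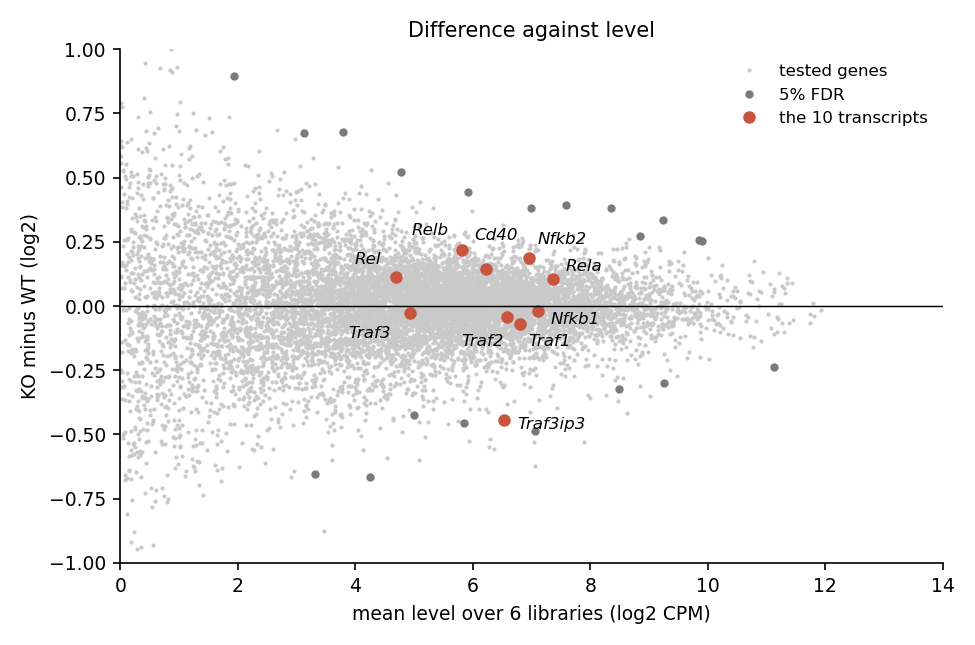
KO minus WT log2 difference (vertical axis) against the mean level over the 6 libraries (log2 CPM, horizontal axis) for the 10133 tested genes; dark points passed 5% FDR, and 19 genes beyond ±1 are outside the axis. Traf3ip3, at -0.45, is the only one of the 10 labelled transcripts among the called genes, and the other 9 lie between -0.07 and 0.22.

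The genes whose 3 paired differences were closest to those of Traf3ip3, by Euclidean distance among tested genes of at least 8 CPM, were Golgb1, Dclre1c, Ccdc77, Rassf1 and Akap9. This likeness rests on 3 numbers per gene, and the negative differences of these genes follow from how they were chosen. Golgb1, which encodes the Golgi protein giantin, was the closest with a distance of 0.0937 on the log2 scale, and its pairs differed by -0.55, -0.75 and -0.12 (limma adjusted p = 0.0581). The mean differences of the other 4 ran from -0.42 to -0.36 (limma adjusted p from 0.18 to 0.395). None of the 5 passed the test.

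The receptor Cd40 (chromosome 2, 165055627 to 165072948, plus strand) did not pass the test. Its level was 70.4, 65.9 and 78.5 CPM in WT and 80.2, 85.6 and 71.9 CPM in KO. KO 1 and KO 2 were above every WT library and KO 3 was below WT 3, so the groups overlapped. The log2 difference was 0.14 ± 0.25 (SD, n = 3 pairs; limma adjusted p = 0.697), with a 95% interval from -0.031 to 0.32. This interval, from a small fall to a rise of 0.32, rests mostly on a spread borrowed from other genes. The SD of Cd40 itself was above the median of 0.112 of genes at 64 CPM or more. Without pair 2 the difference was 0.029, and without pair 3 it was 0.28 (adjusted p = 0.147).

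Among the TRAF adaptors, which carry the signal from the receptor's tail, none passed. Traf1, an adaptor without a RING domain that NF-kB induces, was at 116, 112 and 115 CPM in WT and at 108, 111 and 108 CPM in KO. Every KO library was lower, but by little: the pairs differed by -0.11, -0.01 and -0.09 on the log2 scale, with a mean of -0.07 ± 0.05 (SD, n = 3 pairs; limma adjusted p = 0.887). Traf2, the adaptor that recruits the cIAP ubiquitin ligases, differed by -0.04 ± 0.12 (adjusted p = 0.944), with WT at 97.3, 102 and 93.8 CPM and KO at 95.2, 90.7 and 98.8 CPM. Its groups overlapped, as did those of Traf3, the adaptor that binds NIK. Traf3 stood at 32.3, 30.8 and 29.6 CPM in WT and at 29.0, 30.4 and 31.7 CPM in KO, a log2 difference of -0.03 ± 0.13 (adjusted p = 0.978). The 95% intervals were -0.23 to 0.093 for Traf1, -0.21 to 0.12 for Traf2 and -0.23 to 0.18 for Traf3. Thus Traf3ip3 was lower relative to Traf3 in each pair, by -0.35, -0.66 and -0.25 on the log2 scale.

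The canonical subunits did not pass either. Nfkb1, the gene of p105 and p50, was at 140, 144 and 136 CPM in WT and at 138, 134 and 141 CPM in KO, with overlapping groups and a log2 difference of -0.02 ± 0.08 (SD, n = 3 pairs; limma adjusted p = 0.977). Rela, which encodes RelA (p65), was at 163, 156 and 158 CPM in WT and at 167, 174 and 172 CPM in KO. All 3 KO libraries were above the WT libraries, with a log2 difference of 0.10 ± 0.06 (adjusted p = 0.774). Rel, which encodes c-Rel, the subunit tied to B cell activation and growth, was at 25.3, 24.0 and 25.3 CPM in WT and at 26.4, 27.9 and 26.4 CPM in KO. It too was higher in every KO library, by 0.11 ± 0.09 (adjusted p = 0.845). The 95% intervals were -0.18 to 0.14 for Nfkb1, -0.047 to 0.26 for Rela and -0.11 to 0.33 for Rel.

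Both alternative subunits were higher in every KO library and did not pass over all genes. Nfkb2, the gene of p100 and p52 (chromosome 19, 46304320 to 46312385, plus strand), was at 120, 109 and 120 CPM in WT and at 128, 141 and 128 CPM in KO. KO 2 was the highest library and WT 2 the lowest, and the others differed by less. The log2 difference was 0.19 ± 0.16 (SD, n = 3 pairs; limma unadjusted p = 0.0242, adjusted p = 0.439; 95% interval 0.025 to 0.35). Relb (chromosome 7, 19606217 to 19629438, minus strand) was at 51.7, 49.4 and 55.6 CPM in WT and at 61.2, 64.1 and 56.9 CPM in KO. WT 3 and KO 3 lay next to each other, and libraries 1 and 2 were further apart. Its log2 difference was 0.22 ± 0.17 (limma unadjusted p = 0.0175, adjusted p = 0.392; 95% interval 0.039 to 0.40), the most positive of the 10. Without pair 2 the differences were 0.094 for Nfkb2 and 0.14 for Relb. Exons of Nfkb2 share 531 bases with AC114539.1, a gene on the other strand that was not analysed here. They share 299 bases with Psd, also on the other strand, a gene at 2.21 log2 CPM with a log2 difference of -0.12.

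**Figure D3:**
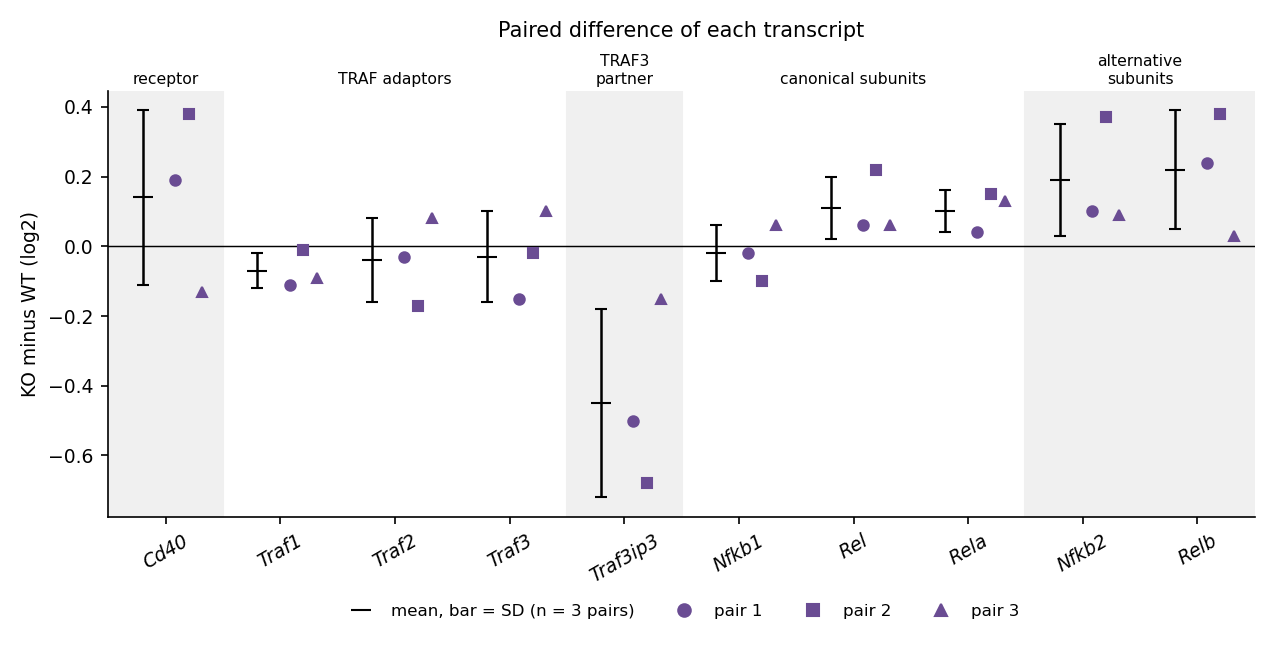
KO minus WT log2 difference (vertical axis) of the 10 transcripts by replicate pair, in the same order of roles; symbols are the 3 pairs, and the line with bars is their mean ± SD (n = 3 pairs). Traf3ip3 (-0.50, -0.68 and -0.15) and Traf1 (-0.11, -0.01 and -0.09) are negative in all pairs. Rel, Rela, Nfkb2 and Relb are positive in all pairs.

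The canonical and alternative arms were then set side by side within each replicate number. The mean log2 difference of Nfkb2 and Relb was 0.17, 0.37 and 0.061 in pairs 1, 2 and 3, and that of Nfkb1, Rel and Rela was 0.027, 0.089 and 0.082. Alternative minus canonical was therefore 0.14, 0.28 and -0.021, with a mean of 0.14 ± 0.15 (SD, n = 3 pairs). The alternative arm was above the canonical arm in pairs 1 and 2 and slightly below it in pair 3, and the mean was smaller than its SD. Part of the gap lay with Nfkb1: against Rel and Rela alone the values were 0.12, 0.19 and -0.034. Within the precursor genes, Nfkb2 gained on Nfkb1 by 0.12, 0.47 and 0.033. Relb minus Rela gave 0.20, 0.23 and -0.093, again with pair 3 on the other side. These are descriptions of chosen transcripts, with no test.

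**Figure D4:**
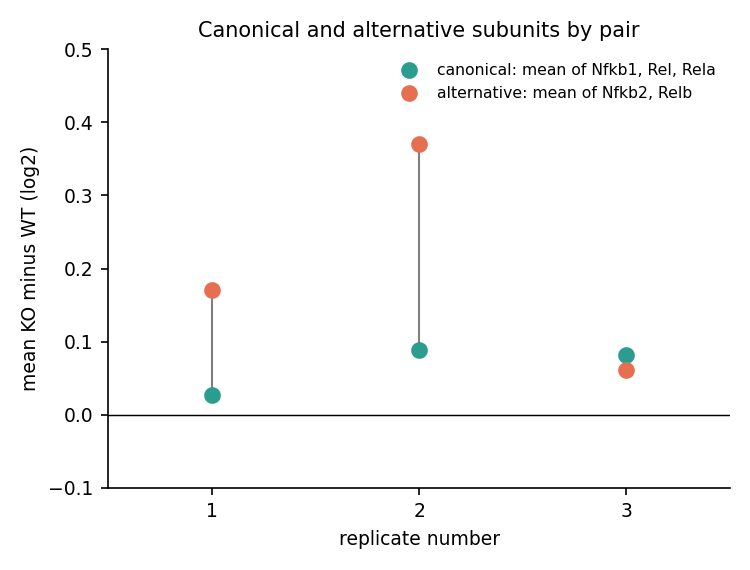
Mean KO minus WT log2 difference (vertical axis) of the canonical subunits (Nfkb1, Rel, Rela) and the alternative subunits (Nfkb2, Relb) for each replicate number (horizontal axis); grey lines join the 2 values of a pair. The gap is 0.14 in pair 1, 0.28 in pair 2 and -0.021 in pair 3.

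Pair 2 stood out among these transcripts: for 8 of the 10 it held the largest difference in size, as it did for 41.5% of all tested genes. Other markers also moved in that pair. The 5 naive and follicular B cell markers found had a median log2 difference of -0.073, 0.60 and -0.26 in pairs 1, 2 and 3. One of them, the low-affinity IgE receptor gene Fcer2a, was at 8.38, 8.14 and 8.47 log2 CPM in WT and at 8.31, 8.55 and 8.21 in KO. The WT libraries of Cd40, Nfkb2 and Relb had the same order, with WT 2 lowest and WT 3 highest. Those of Traf3ip3, Traf2 and Nfkb1 had the reverse order, with WT 2 highest and WT 3 lowest. The order in KO follows from that in WT, since the pair sums are equal. Of the 5 nuclear or non-coding RNAs found, which track RNA quality, Meg3 and Snhg11 were at -5.063 log2 CPM in every library and the other 3 were tested. The 5 summed to 355 to 624 CPM in WT and 264 to 464 CPM in KO. Malat1 differed by -0.38, -1.25 and 0.38 in pairs 1, 2 and 3 and Neat1 by -0.86, -0.84 and -0.22, and none of the 3 passed. Malat1 had the WT order of Traf3ip3, with WT 2 highest and WT 3 lowest. The part of these markers in the differences of Traf3ip3, Cd40, Nfkb2 and Relb was not tested.

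Levels of different transcripts were compared per kilobase of annotated exon, which counts all exons of a gene and so understates genes with long exons that are seldom used. In WT, Rela had the highest level, 51.7 CPM per kb. Nfkb2 followed at 25.3, Cd40 at 21, Traf2 at 19.2 and Traf3ip3 at 18.8 CPM per kb. Cd40 and Traf2 overlapped over their 3 WT libraries, and so did Traf2 and Traf3ip3. Below them lay Relb at 13.4, Traf1 at 13 and Nfkb1 at 11.6 CPM per kb, with Relb and Traf1 overlapping. Traf3 at 4.20 and Rel at 3.33 CPM per kb were the lowest. Traf3ip3 was above Relb in every WT library (17 to 20.4 against 12.7 to 14.3 CPM per kb), while their KO libraries overlapped (12.8 to 15.3 against 14.7 to 16.5).

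Other genes of the pathway were taken from 6 lists by role, with the 10 transcripts left out, which gave 86 tested genes. None passed 5% FDR in the limma test, 7 (8.14%) had an unadjusted p under 0.05 beside 8.82% of all tested genes, and 30.2% had groups that did not overlap, beside 27.7%. Their median log2 difference was 0.0062. Without the filter on low values 4 of them passed (Bcl3, Ccnd2, Irf1 and Irf4), and with the stricter limit of 8 CPM Irf1 did.

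Upstream of the TRAFs, 5 of 12 listed ligand and receptor genes were tested and none passed. Tnfrsf13c, the BAFF receptor, which also signals through TRAF3, was lower in every KO library, at 9.47, 9.44 and 9.42 log2 CPM in WT and at 9.31, 9.34 and 9.36 in KO (limma adjusted p = 0.684). Transcript of the ligand itself, Cd40lg, was near the limit of the test at 1.77 CPM in WT and 1.46 in KO. Cd40lg is one of the T cell markers whose sums are given above. Of 12 other TRAF-family adaptors and partners none passed, and their median was -0.0043. Traf5 differed by -0.08 ± 0.14 (SD, n = 3 pairs) and Traf6, which CD40 also recruits, was at 47.4 CPM in WT and 47.3 in KO.

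The kinases between receptor and subunits showed no call in either arm. Of 19 canonical genes 7 had a positive and 12 a negative difference, with a median of -0.029. Ikbkg, the regulatory IKK subunit NEMO, differed by 0.17 ± 0.12 (SD, n = 3 pairs; limma adjusted p = 0.592). Malt1, which links the antigen receptor to IKK, differed by -0.14 ± 0.19 (limma adjusted p = 0.721). Of the 6 alternative genes beside Traf2 and Traf3, Map3k14 (NIK) was at 4.00, 4.00 and 3.73 log2 CPM in WT and at 3.67, 3.68 and 3.94 in KO. Map3k14 was thus lower in KO 1 and KO 2 than in any WT library, but not in KO 3 (limma adjusted p = 0.826). The ubiquitin ligases Birc2 and Birc3, which degrade NIK with TRAF2 and TRAF3, differed by -0.06 ± 0.20 and 0.09 ± 0.26.

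Among the 19 tested genes listed as inhibitors 3 had an unadjusted p under 0.05, all higher in KO. Of all tested genes 4.16% were so higher and 4.66% lower, and none of the 19 passed over all genes. The list took in atypical IkB proteins, so these counts do not measure inhibition. Bcl3, an atypical IkB protein that binds p50 and p52, was at 5.93, 5.57 and 5.89 log2 CPM in WT and at 6.04, 6.39 and 6.07 in KO (limma adjusted p = 0.317). Its difference was 0.83 in pair 2 and 0.11 and 0.18 in the other pairs. Nfkbid (0.23 ± 0.12) and Nfkbie (0.17 ± 0.10), which also encode IkB proteins, were higher in all 3 pairs (SD, n = 3 pairs; limma adjusted p = 0.473 and 0.537). The feedback inhibitors Nfkbia and Tnfaip3 differed by 0.11 ± 0.25 and 0.18 ± 0.24. Tnip1, a partner of the A20 protein that Tnfaip3 encodes, was lower in all 3 pairs (-0.20 ± 0.09).

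Of 32 tested textbook targets of CD40 and NF-kB, 22 had a positive and 10 a negative difference, with a median of 0.074, beside 0.004 over all tested genes. By pair the median was -0.05, 0.19 and 0.026, and it was -0.011 without pair 2. The target with the smallest p was Irf1, an interferon regulatory factor, at 4.82, 4.90 and 4.95 log2 CPM in WT and at 5.36, 5.28 and 5.24 in KO. All 3 KO libraries were above the WT libraries, by 0.40 ± 0.13 (SD, n = 3 pairs; limma adjusted p = 0.0515). Irf4, which CD40 signals are known to induce through NF-kB, was higher in every KO library too (0.54 ± 0.26, adjusted p = 0.0636). Irf4 is also one of the plasma cell markers, of which 5 of 6 had a positive difference. For Tnfrsf17 that difference came from pair 1 alone, and for Xbp1 it was 0.05 ± 0.15. Fas, the death receptor, was lower in every KO library (-0.20 ± 0.02, adjusted p = 0.324), and the adhesion molecule Icam1 was higher in every one (0.14 ± 0.08, adjusted p = 0.617). Gadd45b differed by -0.20 ± 0.31, of which pair 2 gave -0.56.

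**Figure D5:**
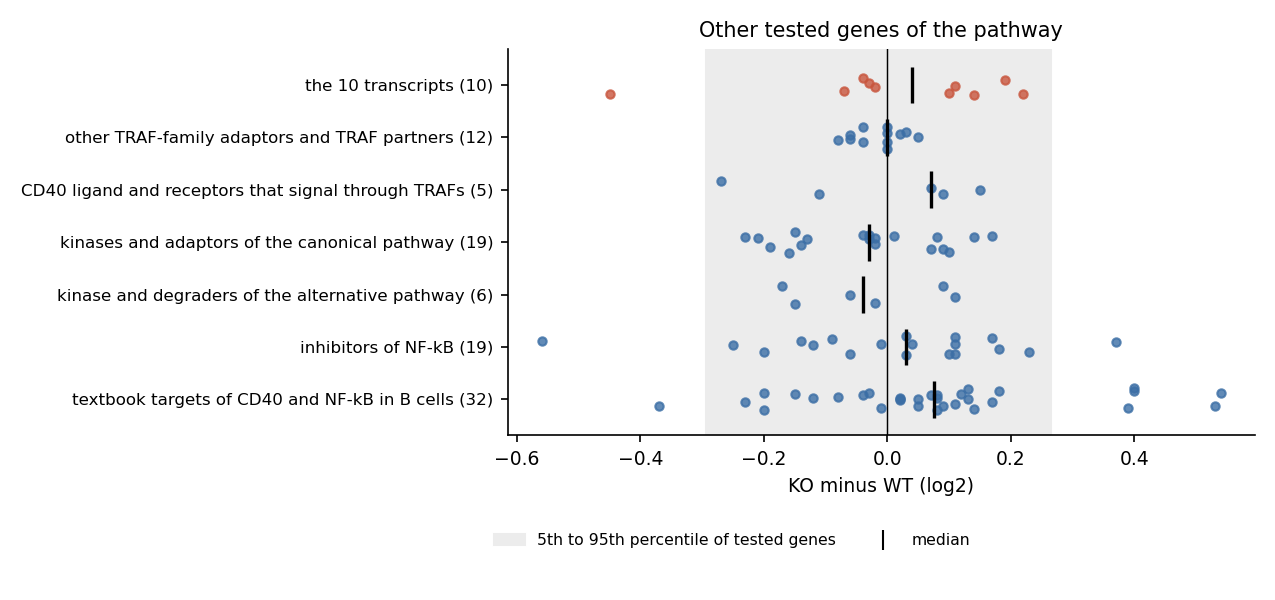
KO minus WT log2 difference (horizontal axis) of the 10 transcripts and of the other tested genes in 6 pathway lists (number of genes in brackets; a gene can be in several lists); points are genes, black lines medians, and the grey band the 5th to 95th percentile of all tested genes (-0.29 to 0.27). Traf3ip3, at -0.45, lies outside the band and the other 9 transcripts inside it.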

How the data were processed

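Messenger RNA libraries of sorted germinal centre B cells (3 KO, 3 WT) were prepared with an Illumina TruSeq mRNA kit, per the labels' protocols. The submitters' processing notes name STAR 2.6.1a and mm10 for the genome, Subread 2.0.1 and featureCounts, Trim Galore 0.6.5, FastQC 0.11.7 and limma, with no settings. The deposited values are log2 CPM: their linear values summed to 997617 to 1000513 per library, so read depth is unknown. In all, 8492 genes hold the same value, -5.063, in every library, and 2068 others reach lower in at least 1 (lowest -6.84). For every gene the WT and KO values of a replicate number had equal sums to within 0.001, as if a replicate effect had been removed by the authors. The numbers therefore cannot be checked for pairing, and the model has a term for the replicate number.

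From these values limma 3.58.1 (R 4.3.3; variance trend, robust moderation, two-sided, Benjamini-Hochberg) was fitted to the 10133 genes with a mean log2 CPM of at least that of 1 CPM and not the same value in all libraries. Each gene had 2 residual degrees of freedom and borrowed a median of 81.2 from other genes; the fit was tested on simulated data. For 1 gene alone, the smallest p that flipping the signs of 3 pairs allows is 0.25 (exact, two-sided). Group CPM are geometric means. Gene positions and exon lengths are from GENCODE M21. The 10 members, the lists and the tests were chosen with earlier results of these data known. Named beside the members were up to 4 genes with the smallest p per list, 9 set pathway genes, and the 5 genes nearest to Traf3ip3. Some genes this rule takes are only counted or are not reported here. Otulin and Jchain were read under their older symbols, Fam105b and Igj. Alternatives left out the block, trend, robust moderation, filter and each pair, and changed the filter, pseudocount and centring.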

Additional observations from a re-analysis of the deposited data

How the results depend on the processing

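The fall of Traf3ip3 kept its direction under all 12 alternatives and passed 5% FDR in 9. One of these, a filter by an arithmetic mean of 1 CPM, was added after seeing the data: it had been fitted first and was replaced by the mean log2 CPM, and it gave 26 called genes of 10159 and an adjusted p of 0.00392 for Traf3ip3 in limma. With no replicate block it was -0.45 (limma adjusted p = 0.0669), with no variance trend -0.45 (adjusted p = 0.77), and leaving out 1 pair gave -0.59 to -0.33, where only the fit without pair 2 did not pass (adjusted p = 0.523). With non-robust moderation the adjusted p was 0.0489. The number of the 10 transcripts called was accordingly 0 with no replicate block, 0 with no variance trend and 0 to 1 without a pair (0 without pair 2). The number of called genes over the whole table, 27, was 142 with no replicate block, 0 with no variance trend (640 with an unadjusted p under 0.05), 12 with non-robust moderation, 95 with no filter and 11 to 136 without a pair. Of the other pathway genes, 0 in the test as reported, 2 passed with no replicate block (Fas and Irf1), 4 with no filter, 1 with at least 8 CPM and 0 to 4 without a pair. Differences near 0 changed sign without a pair: Traf2 ran from -0.10 to 0.022 and Nfkb1 from -0.058 to 0.018 (both highest without pair 2), and Traf3 from -0.088 to 0.038 (highest without pair 1). The difference of alternative and canonical subunits was 0.062 to 0.21 without a pair. The median of ligands and receptors was -0.093 without pair 2. In simulated data with equal pair sums and 200 changed genes, 51.9% of calls were false with no replicate block and 5.28% with it. Those shares belong to data with 200 changed genes. The share of false calls in the deposited values, among the 27 called genes or the 142 with no replicate block, was not tested. The cause of the changes under the alternatives was not tested in these data. Read depth is unknown, so no counting error can be given.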
